A study of Sus scrofa with 24 samples.

Results

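The genes described here encode collagen chains and the proteins that modify, fold, cleave and crosslink them. A gene was a member when its symbol was that of a collagen chain, or began with P3H, P4HA, PLOD, LOX or ADAMTS, or was SERPINH1, PCOLCE or BMP1, and when a probe set of the porcine array carried that symbol alone. This gave 27 genes of 6765, with 49 of 23935 tested probe sets, and each gene is described by its brightest probe set. COL1A1, COL4A1, COL6A1, COL12A1, COL14A1, COL18A1, P4HA1, PLOD2, LOXL2, ADAMTS2 and PCOLCE were not analysed here. The samples came from offspring of German Landrace gilts that all received a high protein diet in gestation, so no diet group or control diet is compared. There were 6 animals at each of 4 stages: fetuses at 94 days post conception (94 dpc), and pigs at 1, 28 and 188 days post natum (1, 28 and 188 dpn). The comparisons follow age. Offspring of 3 gilts were used per stage, and which animals shared a mother is not in the labels, so shared mothers are not in the model and p-values are too small by an unknown margin.

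Collagens are trimeric matrix proteins. Fibrillar chains build the load-bearing fibrils of tendon and of the connective tissue sheaths of muscle, type IV and type XV chains belong to basement membranes, and type VI chains form beaded filaments between the muscle fibre and its surroundings. Before a chain leaves the endoplasmic reticulum, prolyl and lysyl residues are hydroxylated and the chaperone SERPINH1 (HSP47) holds the triple helix. Outside the cell, proteinases such as BMP1 remove the propeptides, and lysyl oxidases start the covalent crosslinks that stabilise the fibril. In skeletal muscle most fibrillar collagen is made by fibroblasts rather than by muscle fibres.

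The labels name the tissue liver and the series title muscle. All 10 measured skeletal muscle markers, among them CKM and MYLPF, were over background in all 24 arrays, and their summed signal ran from 210707 to 306065 at 94 dpc to 456373 to 610023 at 188 dpn. The 12 measured liver plasma protein genes were far more uneven. Their summed signal ran from 8161 to 60330 in the fetuses and from 2979 to 31959 among the 1 dpn animals. It ran from 3192 to 7699 among the 28 dpn animals and from 1358 to 204864 among the 188 dpn animals. Of the 188 dpn animals, 1, 2 and 3 were the high ones for ALB (12421 to 56933). Of the 1 dpn animals, 1, 3 and 6 were high for ALB (2880, 4477 and 3484), against 111 to 187 in animals 2, 4 and 5. Leaving out these 1 dpn animals together was not tested. At 1 dpn, animals 1, 2 and 3 had a low ratio of 5′ to 3′ control signal for EF1A, 0.0963 to 0.135 against 0.670 to 0.703 in animals 4, 5 and 6. This ratio differed with stage too. All fetal arrays (0.988 to 1.048) lay over all later arrays. The 28 dpn arrays had 0.638 to 0.696, and the 188 dpn arrays had 0.512 to 0.656. The part of this ratio in the stage differences was not tested. Values are signal intensities, background is a signal of 74.7 (95th percentile, over all arrays, of the 17 controls named Tag), and signals of different genes are not compared as amounts. Differences are on the log2 scale, later stage minus earlier stage, with the standard error (n = 6 per stage) and the adjusted p of limma. In whole tissue, fewer cells of a type and less RNA per cell cannot be told apart.

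Among the 27 members, 21 had their highest mean at 94 dpc and 19 their lowest at 188 dpn, where 36.1% of all genes were highest at 94 dpc and 37.0% lowest at 188 dpn. Of the 23 members with a stage mean over background, 18 were highest at 94 dpc and 19 lowest at 188 dpn. COL8A1 alone had its lowest mean at 94 dpc (45.3, under background), but it was called neither in a step nor over the whole span. From 94 dpc to 188 dpn, 19 members fell and none rose, among them COL1A2, a chain of type I collagen, to 10.9% of its fetal level, COL5A1 to 13.4% and the procollagen proteinase BMP1 to 16.9%. Of the 15 collagen chains 8 were called over this span. The calls are given step by step. At birth, between 94 dpc and 1 dpn, 8 members fell, and 5 of the 8 were collagen chains. Between 1 and 28 dpn 7 fell, including all 3 lysyl oxidases, and 1 rose. Between 28 and 188 dpn 14 fell, with all 5 hydroxylases and chaperone genes among them.

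Against the whole array, 20.7% of all genes were called lower at birth, 13.4% from 1 to 28 dpn, 14.3% from 28 to 188 dpn and 30.2% from 94 dpc to 188 dpn, where the members gave 29.6%, 25.9%, 51.9% and 70.4%. The shares of all genes called higher were 17.1%, 13.3%, 6.16% and 19.9%. The median difference of the members was -0.47, -0.22, -0.92 and -1.62 in these comparisons, and that of all genes -0.06, -0.02, -0.12 and -0.19. Stages did not overlap, with the later one lower, for 2, 2, 14 and 18 members, where the background is 8.87%, 6.19%, 11.8% and 22.7% of all genes. The first 2 of these 4 counts lie near the background and the last 2 well over it. Over all tested probe sets the median itself moved by -0.15, 0.02, -0.18 and -0.29, and the member median relative to it was -0.31, -0.24, -0.74 and -1.34. Of all called probe sets, 67.2%, 44.0%, 71.8% and 68.7% were lower in the later stage as deposited, 52.3%, 47.5%, 58.0% and 51.1% after quantile normalization, and, once every array was shifted to a common median, 40.8%, 50.5%, 37.1% and 39.2%. The members called lower numbered 10, 7, 12 and 18 after quantile normalization and 5, 7, 12 and 17 with median centring. The shares of all genes called lower under these normalizations are not given here, so these counts have no matching background.

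**Figure D1:**
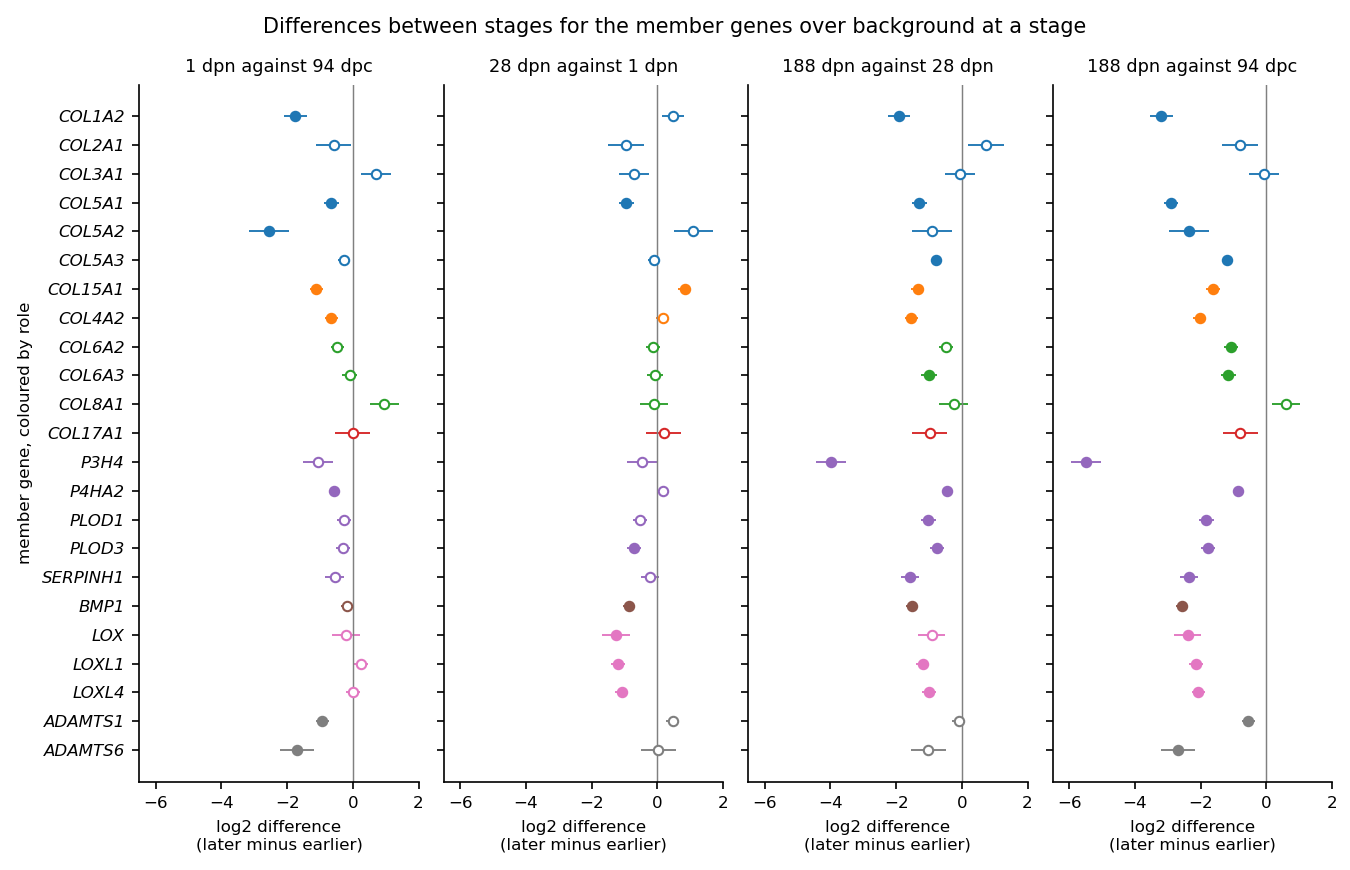
Log2 difference between 2 stages (later minus earlier, x axis) for the 23 member genes with a stage mean over background (y axis, coloured by role), in 4 comparisons, with bars for the standard error, filled points for an adjusted p of at most 0.05 and open points otherwise. The lysyl oxidases LOX, LOXL1 and LOXL4 lie near 0 at birth and below -1 from 1 to 28 dpn, COL1A2 lies below -1 at birth, and P3H4 lies farthest left from 28 to 188 dpn.

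COL1A2 encodes the second chain of type I collagen, the main fibril collagen of tendon and muscle sheaths. Its signal was 3320.1 to 5764 at 94 dpc (median 4611), 551 to 4379 at 1 dpn (median 1156), 1161 to 2890.4 at 28 dpn (median 1683) and 327 to 623 at 188 dpn (median 506). The fetal values all lay over the 28 and 188 dpn values, and at 1 dpn animal 6 (4379) reached the fetal range while the other animals stayed between 551 and 1602. COL1A2 fell by 1.76 ± 0.35 (adjusted p = 0.000507) at birth, differed by 0.48 ± 0.35 from 1 to 28 dpn (adjusted p = 0.375) and fell by 1.91 ± 0.35 (adjusted p = 0.000562) from 28 to 188 dpn. Without animal 6 of 1 dpn the middle difference was 0.83, adjusted p = 0.0354, a rise that passed in none of the other settings. Another COL1A2 probe set, described below, was called lower in this step. Over the whole span COL1A2 fell by 3.19 ± 0.35 (adjusted p = 1.26e-07), a 9.14-fold difference.

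Type V collagen, which starts fibrils and sets their width, was measured through all 3 of its common chains. The signal of COL5A1 was 5149 to 7083 at 94 dpc (median 6342), 2184 to 6444 at 1 dpn (median 4391), 1842 to 2397 at 28 dpn (median 2034) and 584 to 1077 at 188 dpn (median 877). It was lower at each stage than at the one before, with no overlap between 28 and 188 dpn or between 94 dpc and 28 dpn, and with 1 dpn values that overlapped both neighbours. COL5A1 fell by 0.66 ± 0.22 (adjusted p = 0.0273) at birth, fell by 0.95 ± 0.22 (adjusted p = 0.00378) by 28 dpn and fell by 1.29 ± 0.22 (adjusted p = 0.000322) by 188 dpn. It was the single member called lower in each of these 3 steps, although not all 3 calls held under each setting. The birth call was lost with 94 dpc animal 3 (-0.63, adjusted p = 0.0514) or 4 (-0.62, adjusted p = 0.0503) left out, and with 1 dpn animal 4 (-0.54, adjusted p = 0.0701) or 5 (-0.49, adjusted p = 0.0743) left out. It was also lost with median centring (-0.33, adjusted p = 0.283) and with a fit on those 2 stages alone (-0.66, adjusted p = 0.095). Without 1 dpn animals 1, 2 and 3, which had low 5′ signal, the birth difference was -0.99, adjusted p = 0.00434, and that from 1 to 28 dpn was -0.61, adjusted p = 0.1. With its probe sets averaged, COL5A1 differed by -0.30, adjusted p = 0.307 from 1 to 28 dpn.

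COL5A2 was dimmer, with 317 to 395 at 94 dpc (median 343), 14.8 to 155 at 1 dpn (median 89.1), 68.4 to 157 at 28 dpn (median 142) and 7.56 to 129 at 188 dpn (median 102). All 6 fetuses lay over every later animal, and 4, 5 and 4 of the 6 animals were over background at 1, 28 and 188 dpn. The fall at birth was at least 4.63-fold (adjusted p = 0.00249) and that from 94 dpc to 188 dpn likewise at least 4.63-fold (adjusted p = 0.00292), since both later means (59.2 and 67.3) lay under background. Without 1 dpn animals 1, 2 and 3 the birth difference was -1.54, adjusted p = 0.0722. COL5A3 kept 807 to 1277 at 94 dpc, 624 to 984 at 1 dpn, 647 to 891 at 28 dpn and 334 to 549 at 188 dpn, with an adult range that lay wholly under the other 3. It fell by 0.79 ± 0.16 (adjusted p = 0.00139) from 28 to 188 dpn and fell by 1.19 ± 0.16 (adjusted p = 2.01e-06) from 94 dpc to 188 dpn, and its other 2 steps were -0.28 ± 0.16 (adjusted p = 0.192) and -0.12 ± 0.16 (adjusted p = 0.669). Averaging its probe sets ended the call from 28 to 188 dpn (-0.34, adjusted p = 0.173).

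The other fibrillar chains were close to background. COL3A1, a chain of the fine fibrils around muscle fibres, was read by a dim probe set with 39.7 to 238 at 94 dpc, 80.2 to 188 at 1 dpn, 42.2 to 135 at 28 dpn and 24.6 to 141 at 188 dpn. None of its differences passed. COL2A1, the cartilage collagen, lay at 107 to 274 at 94 dpc, 45.8 to 351 at 1 dpn, 38.4 to 257 at 28 dpn and 38.2 to 309.7 at 188 dpn. COL2A1 passed in none of the 3 successive steps, but was lower at 28 dpn than at 94 dpc (at least 2.43-fold, adjusted p = 0.0376), where its 28 dpn mean of 62.8 was under background. COL11A1 had a mean under background at each stage. It fell in the test from 1 to 28 dpn (adjusted p = 0.0278) within that range, so no fold is given, and this call was lost with 1 dpn animal 2 (adjusted p = 0.0519) or with 28 dpn animal 1, 4 or 6 left out (adjusted p = 0.0603, 0.078 and 0.0736). It was lost as well with array weights (adjusted p = 0.0713), with a fit on those 2 stages alone (adjusted p = 0.0795), with averaged probe sets (adjusted p = 0.176) and without 1 dpn animals 1, 2 and 3 (adjusted p = 0.0981). Of the 7 fibrillar chains, 3, 2 and 3 fell in the 3 successive steps and 4 over the whole span.

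The 2 basement membrane members were called lower at birth and again after 28 dpn, and only COL15A1 was called higher in between. COL15A1 encodes a chain found at the outer face of muscle and capillary basement membranes. Its signal was 7365 to 10339.9 at 94 dpc (median 9760.4), 2295 to 6919 at 1 dpn (median 4626), 6624 to 9202 at 28 dpn (median 7816) and 2322 to 3956 at 188 dpn (median 2987), so that all 1 dpn animals lay below all fetuses, and the 28 dpn range lay wholly over the adult one. COL15A1 fell by 1.11 ± 0.20 (adjusted p = 0.000196) at birth, rose by 0.83 ± 0.20 (adjusted p = 0.00469) by 28 dpn, the only call of a rise among the members, and fell by 1.34 ± 0.20 (adjusted p = 7.93e-05) by 188 dpn. Its 28 dpn level differed from the fetal level by -0.28 ± 0.20 (adjusted p = 0.326).

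COL4A2 encodes the second chain of the type IV network. It was measured at 4158 to 9235 at 94 dpc (median 7046), 3451 to 6979 at 1 dpn (median 4007), 4274 to 5333 at 28 dpn (median 4865) and 1260.0 to 2464 at 188 dpn (median 1632). Every adult value lay under every earlier value. COL4A2 fell by 0.66 ± 0.20 (adjusted p = 0.0134) at birth, differed by 0.17 ± 0.20 from 1 to 28 dpn (adjusted p = 0.608) and fell by 1.54 ± 0.20 (adjusted p = 1.42e-05) from 28 to 188 dpn. Without 1 dpn animals 1, 2 and 3 the birth difference was -0.54, adjusted p = 0.114, with median centring -0.33, adjusted p = 0.261, and with a fit on those 2 stages alone -0.66, adjusted p = 0.0651. All 8 listed endothelial markers were measured. Their summed signal was 7989.9 to 14222 at 94 dpc, 4334 to 7765 at 1 dpn, 7198 to 10765 at 28 dpn and 3381 to 4640.0 at 188 dpn. Of these 6 fell at birth, 4 rose by 28 dpn and 5 fell by 188 dpn. The matching shares of all genes were 20.7% lower, 13.3% higher and 14.3% lower. The part of endothelial cells in the basement membrane values was not tested.

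Of type VI collagen 2 chains were measured. COL6A3, whose chain is affected in Bethlem and Ullrich muscular dystrophies, had a signal of 13748 to 22448 at 94 dpc (median 16533), 8047 to 33509 at 1 dpn (median 16129.6), 12675 to 18174 at 28 dpn (median 14924) and 5963 to 9997 at 188 dpn (median 7364). The ranges at 94 dpc, 1 dpn and 28 dpn overlapped, and the adult range lay under that of 28 dpn. COL6A3 fell by 1.00 ± 0.23 (adjusted p = 0.00499) from 28 to 188 dpn, after differences of -0.09 ± 0.23 (adjusted p = 0.805) and -0.07 ± 0.23 (adjusted p = 0.882) in the steps before. COL6A2, its partner chain, held 688 to 1274 at 94 dpc, 552 to 1240.1 at 1 dpn, 592 to 736 at 28 dpn and 330.4 to 559.7 at 188 dpn. It fell by 1.08 ± 0.20 (adjusted p = 0.00017) from 94 dpc to 188 dpn. At birth COL6A2 differed by -0.47 ± 0.20 (adjusted p = 0.0889). That difference passed without 1 dpn animal 6 (-0.62, adjusted p = 0.014) and without 94 dpc animal 5 (-0.58, adjusted p = 0.041). For COL6A3 at birth quantile normalization gave -0.71, adjusted p = 0.0143.

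Of the remaining chains, COL8A1, a network collagen of vessel walls, lay around background with 15.0 to 80.1 at 94 dpc, 62.1 to 180.2 at 1 dpn, 50.5 to 123 at 28 dpn and 19.0 to 112 at 188 dpn. The means of COL8A1 were 45.3, 88.4, 82.0 and 68.9 in stage order, so no fold is given for the whole span (adjusted p = 0.291) and the difference at birth did not pass (adjusted p = 0.0948). COL8A1 passed as higher in both comparisons without 188 dpn animal 4 (adjusted p = 0.0456 at birth and 0.0451 over the span) and with median centring (adjusted p = 0.0286 and 0.0412). COL17A1, a transmembrane collagen of epithelial anchoring sites, had 99.1 to 317 at 94 dpc, 34.5 to 275 at 1 dpn, 111 to 339 at 28 dpn and 29.1 to 236 at 188 dpn, with no call in any comparison. COL7A1, the anchoring fibril collagen, and COL10A1, the collagen of growth plate cartilage, had a mean under background at each stage. COL7A1 passed as lower from 94 dpc to 188 dpn without 94 dpc animal 1 (adjusted p = 0.038) or 3 (adjusted p = 0.0442) or 28 dpn animal 5 (adjusted p = 0.0207).

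**Figure D2:**
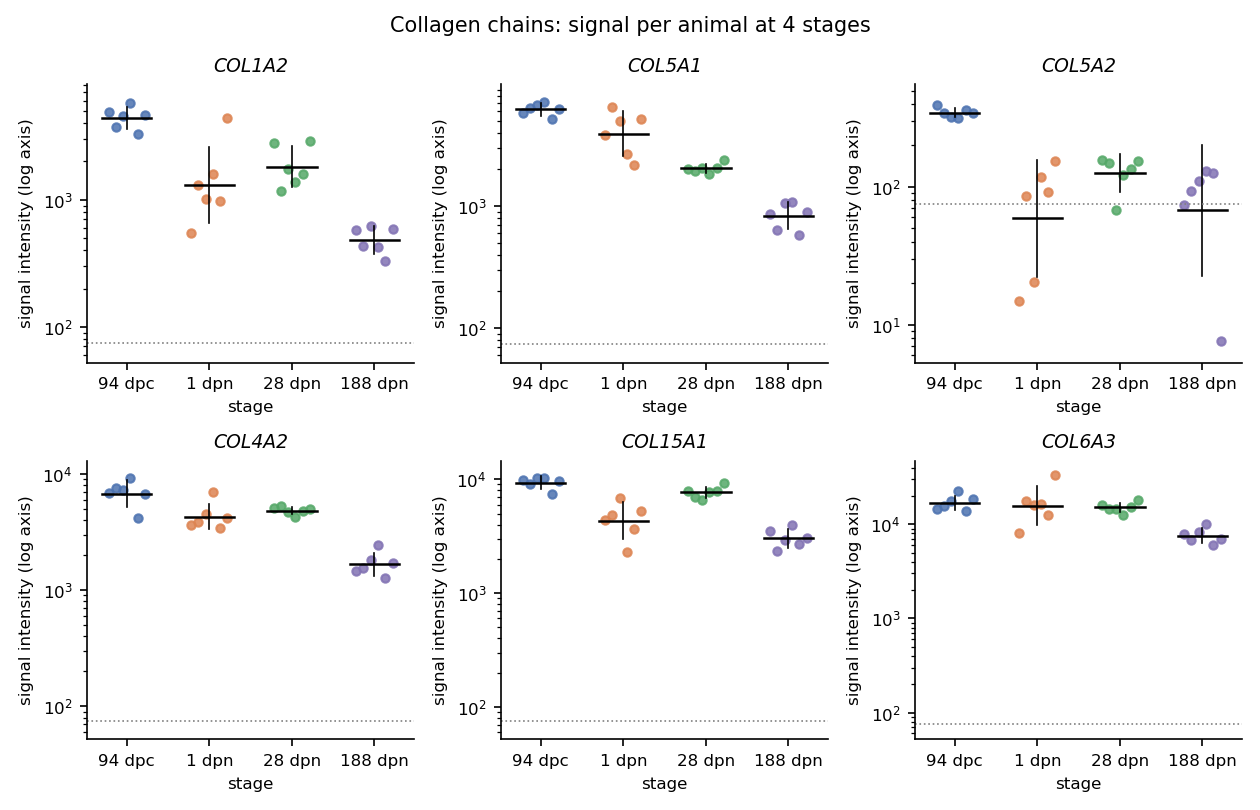
Signal intensity per animal (log y axis) at 4 stages (x axis, 6 animals each) for 6 collagen chains, with the geometric mean as a horizontal bar, 1 SD of the log2 values as a vertical line and the background as a dotted line. COL1A2 and COL15A1 are lower at 1 dpn than at 94 dpc, COL5A1 steps down from stage to stage, and COL6A3 holds 16857, 15796 and 15065 before it reaches 7543.

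Of the 5 enzymes and chaperones that act inside the cell, 1 fell at birth, 1 by 28 dpn and 5 by 188 dpn. P3H4 is a non-catalytic relative of the prolyl 3-hydroxylases that acts with lysyl hydroxylase in the endoplasmic reticulum. Its signal was 438 to 1033 at 94 dpc (median 776), 59.3 to 876 at 1 dpn (median 397), 167 to 338 at 28 dpn (median 262) and 7.33 to 26.5 at 188 dpn (median 16.4). All 6 adult animals were under background, and all 28 dpn animals were over it. P3H4 fell at least 3.43-fold from 28 to 188 dpn (adjusted p = 3.78e-06) and at least 9.89-fold from 94 dpc to 188 dpn (adjusted p = 2.1e-09). Its birth difference of -1.06 ± 0.45 missed the threshold (adjusted p = 0.0821), and 1 dpn animal 1 (59.3) lay apart from the other 5 (359 to 876). At birth it passed without 1 dpn animal 2 (-1.25, adjusted p = 0.04998) or 6 (-1.32, adjusted p = 0.0293), and from 1 to 28 dpn it passed without animal 1 (-0.99, adjusted p = 0.0312).

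SERPINH1 (HSP47) is a chaperone specific for procollagen. It was measured at 3097 to 4369.5 at 94 dpc (median 3566), 1261 to 6819.6 at 1 dpn (median 2269), 1730.3 to 2629 at 28 dpn (median 2192) and 555 to 949 at 188 dpn (median 721). The adult range lay under all earlier ranges, and 1 dpn animal 6 (6819.6) was over every fetus. SERPINH1 fell by 1.58 ± 0.28 (adjusted p = 0.000462) from 28 to 188 dpn and fell by 2.36 ± 0.28 (adjusted p = 4.75e-07) over the whole span. At birth it differed by -0.56 ± 0.28 (adjusted p = 0.145), and by -0.84, adjusted p = 0.0052 without animal 6. After quantile normalization it was -0.79, adjusted p = 0.0312.

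PLOD1, lysyl hydroxylase of the helical region, went through 2836 to 4947 at 94 dpc (median 3695), 1795 to 5052 at 1 dpn (median 3046), 1722 to 2472 at 28 dpn (median 2155) and 915 to 1167 at 188 dpn (median 1088). Adults again lay under all younger animals, and PLOD1 fell by 1.02 ± 0.22 (adjusted p = 0.00289) from 28 to 188 dpn. From 1 to 28 dpn its difference of -0.53 ± 0.22 did not pass (adjusted p = 0.0984), but did without 1 dpn animal 1 (-0.69, adjusted p = 0.0252) or 5 (-0.63, adjusted p = 0.0486). PLOD3, which hydroxylates lysine and also adds glucose, had 773 to 1034 at 94 dpc, 402 to 1190.2 at 1 dpn, 355 to 597 at 28 dpn and 199 to 379 at 188 dpn. It fell by 0.72 ± 0.21 (adjusted p = 0.0193) from 1 to 28 dpn and fell by 0.75 ± 0.21 (adjusted p = 0.0207) from 28 to 188 dpn. The earlier call was lost without 1 dpn animal 2 (-0.59, adjusted p = 0.0546), without 28 dpn animal 6 (-0.64, adjusted p = 0.0502) without 1 dpn animals 1, 2 and 3 (-0.42, adjusted p = 0.284) and with a fit on those 2 stages alone (-0.72, adjusted p = 0.0883). The later one was lost without 28 dpn animal 5 (-0.67, adjusted p = 0.0531), without 188 dpn animal 2 (-0.65, adjusted p = 0.0578), after quantile normalization (-0.58, adjusted p = 0.0797), with median centring (-0.48, adjusted p = 0.169) and without 188 dpn animals 1, 2 and 3 (-0.58, adjusted p = 0.201).

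P4HA2, a catalytic subunit of prolyl 4-hydroxylase, had the smallest difference of this group over the whole span. Its signal was 1692 to 2464 at 94 dpc, 1037 to 1875 at 1 dpn, 1344 to 1714 at 28 dpn and 895 to 1294 at 188 dpn. P4HA2 fell by 0.58 ± 0.15 (adjusted p = 0.00498) at birth and fell by 0.46 ± 0.15 (adjusted p = 0.0423) from 28 to 188 dpn. With median centring the birth difference was -0.25, adjusted p = 0.266 and that of the whole span -0.32, adjusted p = 0.138. The call from 28 to 188 dpn was lost when any of 12 single animals was left out (94 dpc animals 2, 3 and 6, 28 dpn animals 2, 3, 4, 5 and 6, 188 dpn animals 2, 3, 5 and 6), with differences of -0.47 to -0.40 and adjusted p of 0.0509 to 0.0976. It was lost too after quantile normalization (-0.42, adjusted p = 0.0662), with median centring (-0.19, adjusted p = 0.527), with averaged probe sets (-0.49, adjusted p = 0.0643) and without 188 dpn animals 1, 2 and 3 (-0.46, adjusted p = 0.18). All 5 genes of this group fell from 94 dpc to 188 dpn.

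BMP1, the proteinase that cuts the C-propeptide from fibrillar procollagens and also activates lysyl oxidase, had a signal of 775 to 1147 at 94 dpc (median 919.8), 552 to 1048 at 1 dpn (median 826), 398 to 511 at 28 dpn (median 441) and 102 to 217 at 188 dpn (median 159). At birth the ranges overlapped, and after 1 dpn no animal of a later stage reached an animal of an earlier one. BMP1 differed by -0.18 ± 0.18 at birth (adjusted p = 0.484), fell by 0.87 ± 0.18 (adjusted p = 0.00139) from 1 to 28 dpn and fell by 1.51 ± 0.18 (adjusted p = 6.17e-06) from 28 to 188 dpn. It fell in these last steps under each of the settings tried.

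The lysyl oxidases oxidise lysyl and hydroxylysyl residues for crosslinking. LOX itself had 289.7 to 823 at 94 dpc (median 618), 179 to 1456 at 1 dpn (median 519), 114 to 294 at 28 dpn (median 232) and 68.2 to 155 at 188 dpn (median 112). At 1 dpn it ranged from 179 in animal 5 to 1456 in animal 6, a range that held the whole fetal range. Its birth difference was -0.21 ± 0.42 (adjusted p = 0.75), and LOX fell by 1.26 ± 0.42 (adjusted p = 0.0342) from 1 to 28 dpn. From 28 to 188 dpn the difference was -0.92 ± 0.42 (adjusted p = 0.157), with 4 of 6 adults over background. The call from 1 to 28 dpn was lost without 1 dpn animal 2 (-1.14, adjusted p = 0.0777), 4 (-1.15, adjusted p = 0.0671) or 6 (-0.93, adjusted p = 0.0867) and without 28 dpn animal 3 (-1.13, adjusted p = 0.0768) or 4 (-1.11, adjusted p = 0.0821). Without 1 dpn animals 1, 2 and 3 it was -1.53, adjusted p = 0.051, with averaged probe sets -0.84, adjusted p = 0.183 and with a fit on those 2 stages alone -1.26, adjusted p = 0.114.

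LOXL1, an oxidase of elastic fibres, was measured at 661 to 1262 at 94 dpc (median 1031), 714 to 1695 at 1 dpn (median 1244), 414 to 659.8 at 28 dpn (median 519) and 184 to 269 at 188 dpn (median 221). The 28 dpn range lay under the 1 dpn range, and the adult range under both. LOXL1 differed by 0.24 ± 0.21 at birth (adjusted p = 0.42), fell by 1.19 ± 0.21 (adjusted p = 0.000287) by 28 dpn and fell by 1.19 ± 0.21 (adjusted p = 0.000347) by 188 dpn. LOXL4 took a like course with 603 to 758 at 94 dpc, 428 to 1123 at 1 dpn, 250.4 to 519.8 at 28 dpn and 115 to 223 at 188 dpn. It differed by 0.01 ± 0.21 at birth (adjusted p = 0.97), fell by 1.09 ± 0.21 (adjusted p = 0.000712) by 28 dpn and fell by 0.99 ± 0.21 (adjusted p = 0.00216) by 188 dpn. All 3 lysyl oxidases thus had no called change at birth and fell between 1 and 28 dpn, and all 3 fell from 94 dpc to 188 dpn, where LOX fell by 2.39 ± 0.42 (adjusted p = 6.43e-05), LOXL1 fell by 2.15 ± 0.21 (adjusted p = 2.07e-08) and LOXL4 fell by 2.07 ± 0.21 (adjusted p = 4.13e-08). Averaging the LOXL4 probe sets gave -0.21, adjusted p = 0.601 from 28 to 188 dpn and -0.34, adjusted p = 0.284 over the whole span.

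**Figure D3:**
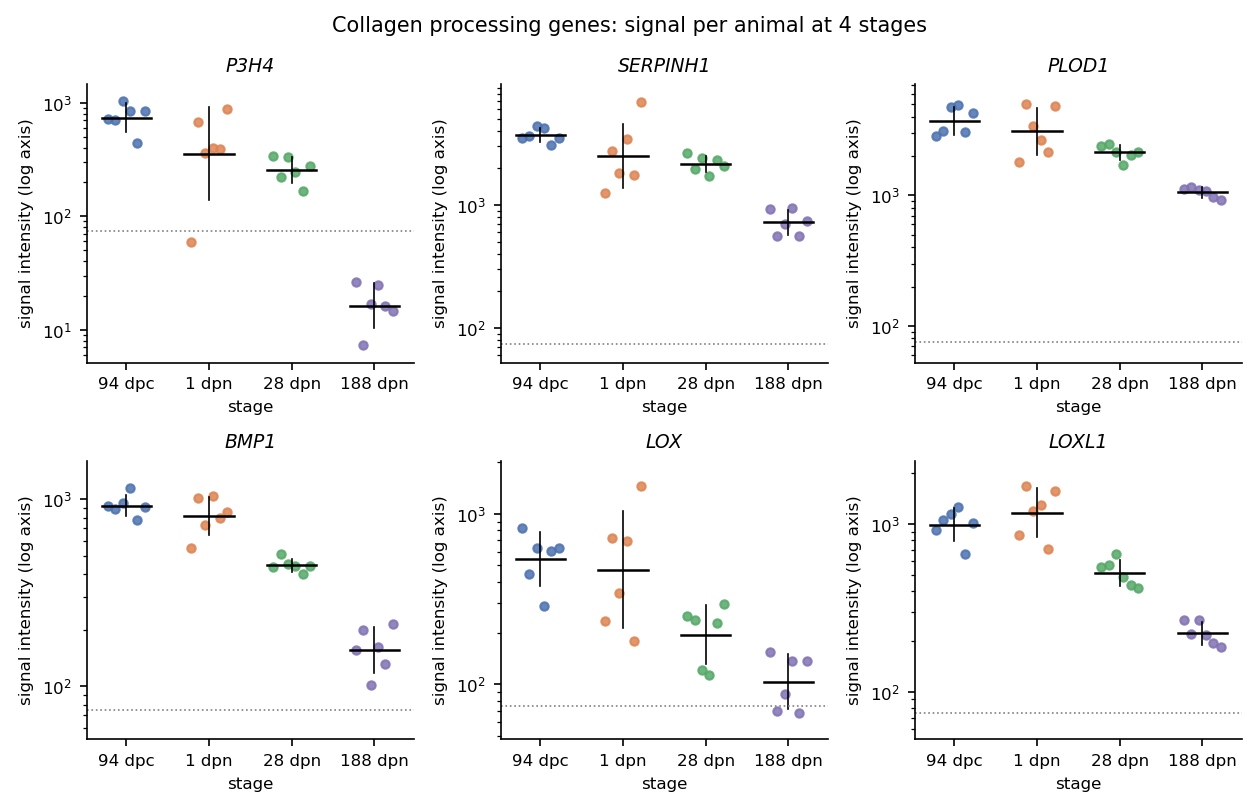
Signal intensity per animal (log y axis) at 4 stages (x axis, 6 animals each) for 6 genes of collagen processing, drawn as for the chains. P3H4 is under the dotted background line in all adults, LOX, LOXL1 and BMP1 are about as high at 1 dpn as at 94 dpc and lower at 28 dpn, and SERPINH1 and PLOD1 drop after 28 dpn.

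The 3 remaining ADAMTS members are secreted metalloproteinases outside procollagen maturation. ADAMTS1, which cleaves the proteoglycans versican and aggrecan, had 789 to 1633 at 94 dpc, 458 to 883 at 1 dpn, 697 to 1058 at 28 dpn and 566 to 968 at 188 dpn, lowest at 1 dpn. It fell by 0.93 ± 0.20 (adjusted p = 0.00115) at birth and fell by 0.55 ± 0.20 (adjusted p = 0.0322) from 94 dpc to 188 dpn. The latter call was lost after quantile normalization (-0.32, adjusted p = 0.27), with median centring (-0.02, adjusted p = 0.968), with a fit on those 2 stages alone (-0.55, adjusted p = 0.0581), without 188 dpn animals 1, 2 and 3 (-0.38, adjusted p = 0.274), and without 94 dpc animal 4 (-0.48, adjusted p = 0.0741) or 6 (-0.43, adjusted p = 0.0948) or 188 dpn animal 1 (-0.50, adjusted p = 0.0699), 2 (-0.47, adjusted p = 0.0814) or 6 (-0.52, adjusted p = 0.0601). From 1 to 28 dpn it passed as higher without 1 dpn animal 5 (0.59, adjusted p = 0.0311). ADAMTS6 was over background in all 6 fetuses (102 to 249 at 94 dpc) and in at most 2 of 6 animals at later stages, a fall of at least 1.99-fold at birth (adjusted p = 0.0167, and 0.0502 with array weights). ADAMTS20 had a mean under background at each stage, and passed at birth without 1 dpn animal 1 (adjusted p = 0.036) or 6 (adjusted p = 0.0265).

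Whether genes moved unequally was asked within each array, by the log2 signal of a gene minus that of COL1A2, a measure that does not depend on the scaling of the array. COL6A3, LOX and COL4A2 were set against COL1A2, which replaced COL1A1 after the data were seen. The p-values are therefore not those of a planned test. The 12 tests (3 genes, 4 comparisons) were two-sided exact permutation tests of 6 against 6 animals with Benjamini-Hochberg adjustment. LOX minus COL1A2 averaged -3.03 ± 0.67 (SD, n = 6) at 94 dpc, -1.48 ± 0.55 at 1 dpn, -3.22 ± 0.57 at 28 dpn and -2.22 ± 0.45 at 188 dpn. LOX was highest against COL1A2 at 1 dpn, with a change of 1.55 (exact p = 0.00433, adjusted 0.00866) at birth and of -1.74 (exact p = 0.00433, adjusted 0.00866) from 1 to 28 dpn. From 28 to 188 dpn the change was 1.00 (exact p = 0.00866, adjusted 0.0148). With averaged probe sets the changes after birth were -0.49, adjusted permutation p = 0.392 and 0.87, adjusted permutation p = 0.174. From 94 dpc to 188 dpn it was 0.80 (exact p = 0.0238, adjusted 0.0317), a call lost without 94 dpc animal 2, 4 or 6 or 188 dpn animal 1, 4, 5 or 6, with adjusted permutation p of 0.0519 to 0.0649.

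COL6A3 minus COL1A2 averaged 1.93 ± 0.17 (SD, n = 6), 3.60 ± 0.39, 3.05 ± 0.41 and 3.96 ± 0.36 in stage order. It changed by 1.66 (exact p = 0.00216, adjusted 0.00866) at birth, with every 1 dpn animal over every fetus, so COL1A2 fell more than COL6A3 there. It changed by -0.55 (exact p = 0.0455, adjusted 0.0545) from 1 to 28 dpn and by 0.91 (exact p = 0.00433, adjusted 0.00866) from 28 to 188 dpn. The middle value passed without 1 dpn animal 6 (adjusted permutation p = 0.0144) or 28 dpn animal 2 (adjusted permutation p = 0.0286). Over the whole span it was 2.03 (exact p = 0.00216, adjusted 0.00866). COL4A2 minus COL1A2 changed by 1.17 (exact p = 0.00216, adjusted 0.00866) over the whole span. At birth it changed by 1.10 (exact p = 0.0238, adjusted 0.0317), which did not pass without 1 dpn animal 1, 3, 4 or 5 or any fetus but animal 2, with adjusted permutation p of 0.0545 to 0.0693. It was 0.56, adjusted permutation p = 0.283 with averaged probe sets and 0.67, adjusted permutation p = 0.239 without 1 dpn animals 1, 2 and 3. Its other steps were -0.31 (exact p = 0.515, adjusted 0.515) and 0.38 (exact p = 0.199, adjusted 0.217).

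**Figure D4:**
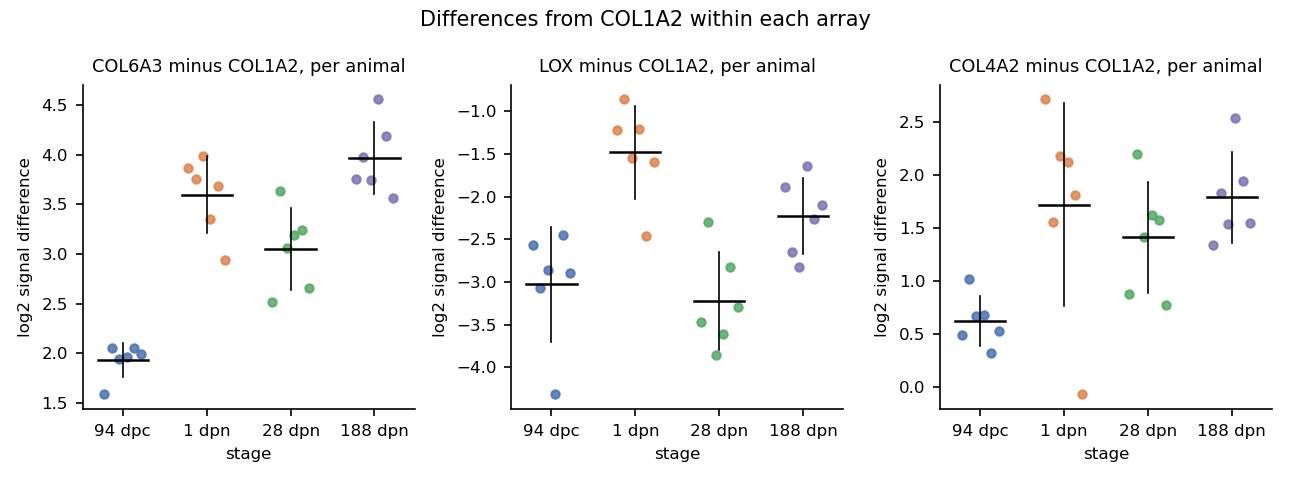
Log2 signal of COL6A3, LOX and COL4A2 minus that of COL1A2 within each array (y axis) at 4 stages (x axis), 1 point per animal, with the mean as a horizontal bar and 1 SD as a vertical line. LOX stands at -1.48 at 1 dpn between -3.03 and -3.22 on either side, and COL6A3 is lowest against COL1A2 at 94 dpc.

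Several genes had further probe sets with the same symbol. Over the 4 comparisons, of the further probe sets over background in a stage, 11 of 14 at birth, 5 of 12 from 1 to 28 dpn, 8 of 10 from 28 to 188 dpn and 13 of 14 from 94 dpc to 188 dpn moved in the direction of the brightest, and none was called against a call of the brightest. A second PLOD1 probe set fell by 2.06 ± 0.22 at birth (adjusted p = 3.49e-07), where the brightest gave -0.27 ± 0.22 (adjusted p = 0.391), and then rose by 0.66 ± 0.22 (adjusted p = 0.034). A second P4HA2 probe set changed by -1.83 ± 0.29 (adjusted p = 4.66e-05) at birth and 1.53 ± 0.29 (adjusted p = 0.000596) by 28 dpn. The second BMP1 probe set differed by 0.49 ± 0.29 (adjusted p = 0.211) at birth. A second COL1A2 probe set gave -1.18 ± 0.40 (adjusted p = 0.0381) from 1 to 28 dpn, where the brightest was not called, and fell at least 3.89-fold over the whole span (adjusted p = 8.84e-07). A second LOXL4 probe set near background gave -0.02 ± 0.39 (adjusted p = 0.979) over the whole span, and which transcripts each probe set reads was not analysed here.

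Single animals were high or low for many members at once. Among the 23 members over background in a stage, 1 dpn animal 6 was the highest of its stage for 9 and the lowest for 0, where it was highest for 18.4% of all 5897 genes over background. It held a COL6A3 signal of 33509 against 8047 to 17575 in the other 5. The same animal had the highest sum of 8 measured fibroblast markers at 1 dpn (62698 against 27931 to 48982) and of 4 measured tendon and cartilage markers (16171 against 226 to 11215), the latter almost all COMP, with SOX9 and HAPLN1 at or near background. By the median fibroblast marker signal animal 2 was highest (4918, against 4064 in animal 6). Animal 6 also had the highest 1 dpn sums of skeletal muscle, adipocyte (24267 against 6404 to 16082), endothelial, smooth muscle and pericyte, macrophage and nerve markers. Its sums of liver plasma protein (20917, under 31959 in animal 3) and proliferation markers were not the highest. At 94 dpc, animal 4 was highest for 13 of 23 members (31.8% of all genes) and animal 5 lowest for 12 (29.0% of all genes). Fetus 5 also had a macrophage marker sum of 24659.8 against 3046 to 4108 in the other 5, and the lowest fetal sums of skeletal muscle (210707 against 274695 to 306065) and endothelial markers (7989.9 against 11530.1 to 14222). Its fibroblast marker sum of 48076 lay within the range of the other 5 (44739 to 54696). The part of these cells in its low collagen values was not tested. Without it 9 members were lower at birth and 19 over the whole span. At 188 dpn, animal 4 was highest for 10 (18.8% of all genes). Leaving out 188 dpn animals 1, 2 and 3, which had the high albumin signal, left 18 members lower from 94 dpc to 188 dpn and 12 from 28 dpn.

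Genes outside the set that serve the same pathway were counted in 4 lists. As background, 20.7%, 13.4%, 14.3% and 30.2% of all genes were called lower at birth, by 28 dpn, by 188 dpn and over the whole span. The shares called higher were 17.1%, 13.3%, 6.16% and 19.9%. Of 15 measured partners of collagen folding and secretion, 5 fell and 2 rose at birth, 5 fell by 28 dpn, 8 fell by 188 dpn, and 11 fell and 2 rose over the whole span. FKBP10, a prolyl isomerase needed for collagen crosslinking, changed by -3.58 ± 0.32 (adjusted p = 5.71e-09) from 94 dpc to 188 dpn, and FKBP14 by -2.45 ± 0.23 (adjusted p = 1.77e-08). COLGALT1, which adds galactose to hydroxylysine, changed by -2.13 ± 0.17 (adjusted p = 1.22e-09), and CRTAP, a partner of prolyl 3-hydroxylase, by -2.22 ± 0.25 (adjusted p = 1.98e-07). SPARC, a collagen-binding protein and the brightest of this list, rose at birth by 0.63 ± 0.15 (adjusted p = 0.00234) and changed by -0.82 ± 0.15 (adjusted p = 0.000498) from 28 to 188 dpn.

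Of 14 measured genes of collagen degradation, 5 fell and 1 rose at birth, 2 fell and 2 rose by 28 dpn, and 7 fell over the whole span. From 1 to 28 dpn these counts lay near the shares of all genes, 13.4% lower and 13.3% higher. MMP14, a membrane-bound collagenase, changed by -2.38 ± 0.32 (adjusted p = 7.19e-06) at birth and -4.12 ± 0.32 (adjusted p = 8.08e-10) over the span. FAP, a fibroblast peptidase, changed by -2.28 ± 0.19 (adjusted p = 2.05e-08) at birth and rose by 0.82 ± 0.19 (adjusted p = 0.0041) to 28 dpn. CTSB, the brightest of this list, differed by 0.08 ± 0.18 over the span and was not called.

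Among 10 measured receptors and TGF-beta genes, 6 fell and 2 rose over the span. The ligand TGFB3 changed by -3.02 ± 0.41 (adjusted p = 2.95e-06) and TGFB1 by -1.30 ± 0.25 (adjusted p = 0.000189), and ITGB1, the common chain of collagen-binding integrins, by -1.01 ± 0.18 (adjusted p = 0.00018) at birth. Of 14 other fibrous matrix genes, 4, 7 and 6 fell in the 3 steps, none rose, and all 14 fell over the span. POSTN, a matrix protein that promotes crosslinking, changed by -3.74 ± 0.50 (adjusted p = 6.41e-06) at birth and -6.29 ± 0.50 (adjusted p = 1.08e-09) over the span, and ASPN by -4.75 ± 0.35 (adjusted p = 3.37e-10). DCN, the proteoglycan that coats fibrils and the brightest of this list, changed by -1.09 ± 0.21 (adjusted p = 0.000256).

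Markers of the cells that make collagen moved as well. The summed signal of 8 measured fibroblast markers was 44739 to 54696 at 94 dpc, 27931 to 62698 at 1 dpn, 24660.0 to 32969.6 at 28 dpn and 16726 to 24841 at 188 dpn. Of the 8 markers 6 fell from 94 dpc to 188 dpn, with DCN, LUM and MFAP5 counted also among the fibrous matrix genes. TCF21 alone among them had stage means under background (14.0 to 31.0), and it is kept among the 8. At birth 1 of the 8 fell and 1 rose, the latter PDGFRB, and 5 fell by 28 dpn. Proliferation markers, 6 measured, had sums of 11742 to 14944 at 94 dpc, 1471 to 4082 at 1 dpn, 5211 to 6845 at 28 dpn and 1852 to 2807 at 188 dpn, while all 6 fell at birth. Of the 10 skeletal muscle markers 6 rose at birth and 10 over the whole span. The sums of 4 tendon and cartilage markers were 754 to 2629, 226 to 16171, 118 to 766 and 77.6 to 487 in stage order. Smooth muscle and pericyte markers, 4 measured, had sums of 17788 to 27959, 12219 to 23605, 15011 to 22270.0 and 7378 to 9161, and of these 4 markers 1 fell at birth, 2 rose by 28 dpn, 3 fell by 188 dpn and 2 fell over the whole span. The shares of all genes given for the 4 partner lists are the background of these marker counts as well. The part of these cell types in the collagen values was not tested.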

How the data were processed

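Total RNA (0.5 µg per sample) was hybridised to Affymetrix Porcine Genome arrays, 1 per animal. The authors used GCOS 1.1.1, per the submitters' processing notes. The deposited values are linear signal intensity, and each array had been scaled to a mean of 498 to 499 without the top and bottom 2% of probe sets. Probe summary settings are not given in the sources used here, and array number limits the precision. Intensities were taken as log2, with no constant and no filter. Gene symbols are those of GEO's platform annotation of August 2016, where 10069 tested probe sets carry 1 symbol. Controls (183 probe sets) were not tested.

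Stages were compared with limma 3.58.1 in R 4.3.3 (lmFit, eBayes, two-sided) on all 24 arrays, with 20 residual degrees of freedom, Benjamini-Hochberg adjustment over 23935 probe sets and a threshold of 0.05. Where 1 stage mean was under background the fold is at least the ratio to background, and where both were none is given. Mother, sex and array batch are not in the labels and are no term of the model. Nothing in the labels pairs animals across stages, and animal numbers follow sample order. The fit was tested on simulated data. Members, lists and the gene pairs were chosen with earlier results of these data known. The COL1A2 pairs replaced pairs with COL1A1 after the data were seen. Any member may be named. Of each partner list, up to 2 called genes with the largest difference per comparison and the brightest gene were eligible. Alternatives were 2 other normalizations, constants of 16 and 64 before log2, a filter on the dimmest 30%, trend and robust eBayes, array weights, fits of 2 stages, the mean of a gene's probe sets, and leaving out each animal or sets of arrays that stand apart. Figures were drawn with Python 3.11.15 and matplotlib 3.10.9.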

Additional observations from a re-analysis of the deposited data

Results flagged for a closer look

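Within a stage, the highest or lowest animal of a member was set against its nearest neighbour, as a share of the range of the 6 animals (Dixon's ratio). Of 82 such tests, 5 passed the 95% critical value of 0.625, and chance passes about 1 in 20. For ADAMTS1 at 28 dpn, animal 4 was the highest at 1058 with 805 next, a ratio of 0.653. For COL17A1 at 1 dpn, animal 1 was the lowest at 34.5 with 181 next, a ratio of 0.799. For COL5A2 at 28 dpn, animal 3 was the lowest at 68.4 with 123 next, a ratio of 0.701. For P3H4 at 1 dpn, animal 1 was the lowest at 59.3 with 359 next, a ratio of 0.669. For PLOD3 at 94 dpc, animal 1 was the lowest at 773 with 942 next, a ratio of 0.682. P3H4 from 1 to 28 dpn passed without that animal (-0.99, adjusted p = 0.0312).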

How the results depend on the processing

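Of the 49 calls of a member in 4 comparisons, 33 kept direction and threshold under every alternative, 16 lost the threshold in at least 1, and none changed direction. Of 59 differences not called, 15 passed in at least 1. With arrays centred on their median 5 members were lower and 1 higher at birth, and 1 was higher from 94 dpc to 188 dpn, COL8A1 in both. From 1 to 28 dpn 4 members were lower with only these 2 stages in the fit, 4 were lower and 2 higher with a gene's probe sets averaged (P4HA2 the addition), and 3 were lower without 1 dpn animals 1, 2 and 3. Averaging a gene's probe sets also ended the calls of COL5A1, COL11A1 and LOX from 1 to 28 dpn. It ended those of COL5A3, LOXL4 and P4HA2 from 28 to 188 dpn and of LOXL4 over the whole span. Within arrays, it ended the changes of LOX against COL1A2 from 1 to 28 dpn (-0.49, adjusted permutation p = 0.392) and from 28 to 188 dpn (0.87, adjusted permutation p = 0.174). The change of COL4A2 against COL1A2 at birth was lost as well (0.56, adjusted permutation p = 0.283). Averaging added PLOD1 at birth (-1.17, adjusted p = 2.42e-05). COL7A1 also passed over the whole span in that setting (adjusted p = 0.0471), but it has a single probe set, so its difference was unchanged. Adding a constant before log2 added P3H4 at birth (adjusted p = 0.0487 with 16 and 0.0265 with 64) and members near background from 94 dpc to 188 dpn. Leaving out 1 animal at a time gave 0 to 1 higher and 7 to 12 lower at birth, 1 to 2 and 4 to 9 from 1 to 28 dpn, none higher and 12 to 14 lower from 28 to 188 dpn, and 0 to 1 and 18 to 20 over the whole span. The low count of 4 from 1 to 28 dpn came without 1 dpn animal 2, the count of 2 higher without 1 dpn animal 5 or 6, and the 1 higher at birth and over the span without 188 dpn animal 4. The cause was not tested. No paired analysis was possible because animal numbers follow sample order and mothers are not in the labels. The planned pairs with COL1A1 were not run. Members near background have the least precise values.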
